A study of Harpegnathos saltator with 47 samples.

Results

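Gamergates of the ponerine ant Harpegnathos saltator were set against workers from stable colonies, in brains without optic lobes profiled by strand-specific sequencing of polyA RNA. All gamergates from the 2 sequencing batches that also held stable workers were taken, which gave 10 gamergates (numbers 3 to 12) and 10 stable workers (numbers 1 to 10), or 20 of the 33 ants in the series. These batches, told by the run date each library name carries and called B and C here, each held 5 gamergates and 5 stable workers. The workers of transition nests and gamergates 1 and 2, whose batch held no stable worker, were left out. The gamergates came from transition nests, in which newly eclosed ants were kept with males and without a dominant reproductive, and they were taken on day 120, when status was scored on the ovaries. The stable workers are labelled as workers of a stable colony, with the same day 120, and their own age and treatment are not given apart from the protocol for the transition nests. The labels' protocols list the same housing conditions for both groups. The 2 groups differ in caste and in the kind of nest at once, and in this comparison these cannot be told apart. Since the labels do not tie ants to nests, p-values reflect the spread between single ants, some of which may be nestmates.

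Harpegnathos is known for workers that keep the ability to mate and to lay fertile eggs. When a colony loses its reproductive, workers duel with their antennae, and winners become gamergates, which activate their ovaries, stop hunting and live longer than other workers. Nestmates that lose the duels, and workers of a colony with a reproductive, forage and tend brood.

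The deposited values were RPKM, the reads of a gene scaled by its length and by the reads in genes of the library. Depth over the 20 libraries, from whole reads recovered out of these values, ran from 4685633 to 11159675 reads. The 4 measures taken per ant, reads in genes, the share of reads from ribosomal RNA, the number of genes above 0 and the share of the 10 most abundant genes, had adjusted p values of 0.646, 0.543, 0.554 and 0.543 between the groups in exact two-sided permutation tests within batches. Pairs of ants correlated at 0.871 to 0.979 on the log2 scale. In batch B, 3 ants had less of their reads in the top quartile of genes by length than any other, with 51.5% in gamergate 3, 48.6% in stable worker 3 and 50.4% in stable worker 5, and the next lowest of the 20 ants had 54.5%. Batch means were 57.2 ± 3.41% in gamergates and 53.7 ± 4.22% in stable workers of batch B, and 58.3 ± 1.66% in gamergates and 58.9 ± 1.55% in stable workers of batch C (SD, n = 5 each). Without these 3 ants no row passed the test below, with 777 rows at an unadjusted p under 0.05 in limma. The library names began with b for 9 of the gamergates and with H for gamergate 12, and with ND or H for the stable workers. What these prefixes mean is not given. Since gamergate 12 is the only gamergate to share a prefix with stable workers, prefix and group can hardly be told apart. A fit with the prefix as a further term, coded as b against H and ND together, separates them through that ant alone. Values with the prefix term below therefore rest on 1 gamergate and cannot show whether a difference depends on the prefix. The files name genes by ID only, none of the 19198 row IDs was found in the RefSeq gene table, and brain markers could therefore not be looked up. No function is given for any gene below.

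Few genes passed the test between the brains of gamergates and stable workers, and nearly all of those that passed were lower in gamergates. Genes that did not pass are not thereby shown to be equal. Of 11234 tested rows, those averaging 0.5 RPKM or more over the series, 8 were past the limma threshold of an adjusted p under 0.05, which is 0.0712%. Hsal_11357 was the single row that rose (0.0089%), and 7 rows fell (0.0623%). In bulk brain RNA, fewer cells of a type and less RNA per cell cannot be told apart. The median difference of the 8 rows, without regard to sign, was 1.02 on the log2(RPKM + 1) scale, against 0.11 over all tested rows. The 8 rows were picked by the test of this difference in the same ants, which favours large ones. At an unadjusted p under 0.05 there were 973 rows (8.66%), 329 higher (2.93%) and 644 lower (5.73%) in gamergates. This split depended on the scaling, with 411 higher and 526 lower under median-ratio scaling, and 443 higher and 511 lower under quantile normalization. It was 225 higher and 263 lower in batch C alone. With the prefix as a further term it was 131 higher and 120 lower, and the median over all rows was 0.04, against -0.02 without it. Under either scaling, 1 row rose and 3 fell.

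**Figure D1:**
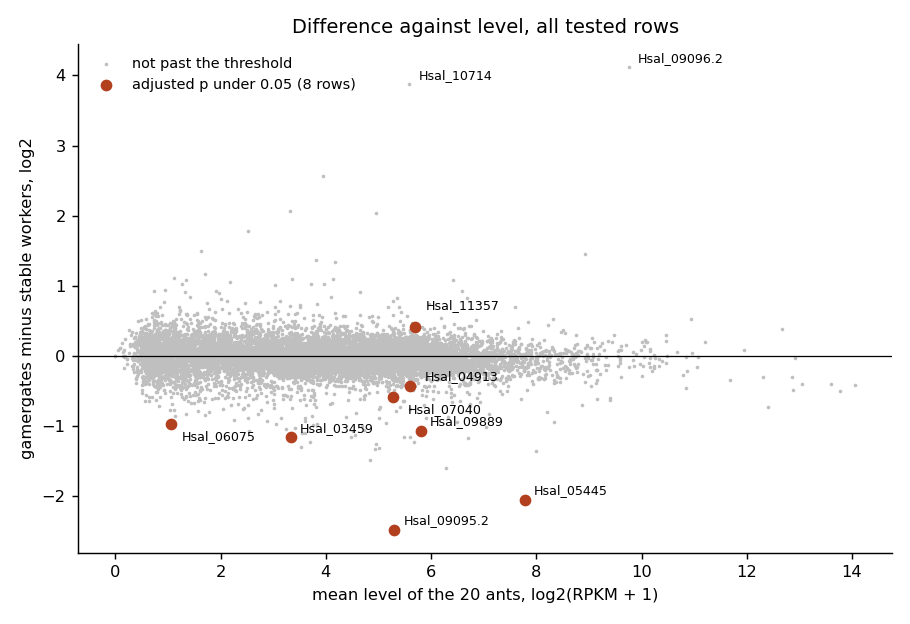
Log2 difference of gamergates minus stable workers (y axis) against the mean level of the 20 ants as log2(RPKM + 1) (x axis), with a point for each of 11234 tested rows and the 8 rows past an adjusted p of 0.05 in limma in red. Of the red points 7 lie below 0, and the largest positive differences, Hsal_09096.2 at 4.12 and Hsal_10714 at 3.87, were not past the threshold.

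The gene with the smallest p was Hsal_09095.2, which fell 5.59-fold on the log2(RPKM + 1) scale. Its lowest, median and highest levels were 4.35, 7.15 and 47.0 RPKM in gamergates, against 31.9, 51.5 and 145 RPKM in stable workers. In 9 of the 10 gamergates it lay below every stable worker, and gamergate 11, at 47.0 RPKM, was inside the range of stable workers. The means were 12.5 ± 13.2 RPKM in gamergates and 64.3 ± 36.0 RPKM in stable workers (SD, n = 10 each), a difference of -2.48 (SE 0.348, limma adjusted p = 0.00594). In batch B the difference was -3.11 and in batch C -1.85. This was the only 1 of the 8 calls that survived leaving out each of the 20 ants in turn, with differences of -2.73 to -2.31. It was lost in 5 of 19 other settings, among them the prefix as a further term (adjusted p 0.994 in limma, difference -2.99) and the removal of the 3 ants with little of their reads in long genes (adjusted p 0.0697 in limma, difference -2.14).

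Hsal_07040 separated the groups completely, by a smaller amount. It ran from 21.6 to 35.7 RPKM with a median of 31.8 RPKM in gamergates, and from 35.7 to 57.0 RPKM with a median of 45.3 RPKM in stable workers. The highest gamergate, number 6 at 35.66 RPKM, lay just under the lowest stable worker, number 4 at 35.68 RPKM, so that the groups met without overlap. It averaged 30.1 ± 5.06 RPKM in gamergates and 45.8 ± 6.59 RPKM in stable workers (SD, n = 10 each), a difference of -0.59 (SE 0.0965, limma adjusted p = 0.0194). The difference was nearly the same in both batches, -0.58 in batch B and -0.60 in batch C. Without gamergate 4, 5 or 7 or stable worker 5 it missed the threshold, at adjusted p values of 0.0515 to 0.0555 in limma. The call was also lost in 6 of 19 other settings. Without the ND stable workers the difference was -0.56 (limma adjusted p = 0.244). Without the 3 ants with little of their reads in long genes it was -0.57 (limma adjusted p = 0.109). With the prefix term it was -0.40.

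Hsal_06075 was the other row of all 11234 whose groups did not overlap, 2 rows or 0.0178%. This weakly expressed gene lay between 0 and 0.956 RPKM in gamergates, with a median of 0.345 RPKM, against 0.974 to 3.31 RPKM with a median of 1.67 RPKM in stable workers. Every gamergate lay below every stable worker, but by less than 1 read, since gamergates 11 and 12 had 6 reads each (0.956 and 0.904 RPKM) and stable worker 6 had 5 reads (0.974 RPKM). Gamergates 5, 7 and 8 had 0 reads, which allows up to 0.730, 0.711 and 0.482 RPKM by a limit of 3 reads that covers counting error only. Over the 20 ants the gene had between 0 and 13 reads. It fell in gamergates, with a difference of -0.98 (SE 0.160, limma adjusted p = 0.0194), with means of 0.407 ± 0.371 RPKM in gamergates and 1.75 ± 0.658 RPKM in stable workers (SD, n = 10 each). With a pseudocount of 0.1 the difference was -2.28 (limma adjusted p = 0.0747), and with voom on the recovered reads it was -2.18 (adjusted p = 0.0601), so that the size grew while the threshold was missed. With the prefix term it was -0.54 (limma adjusted p = 0.994).

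**Figure D2:**
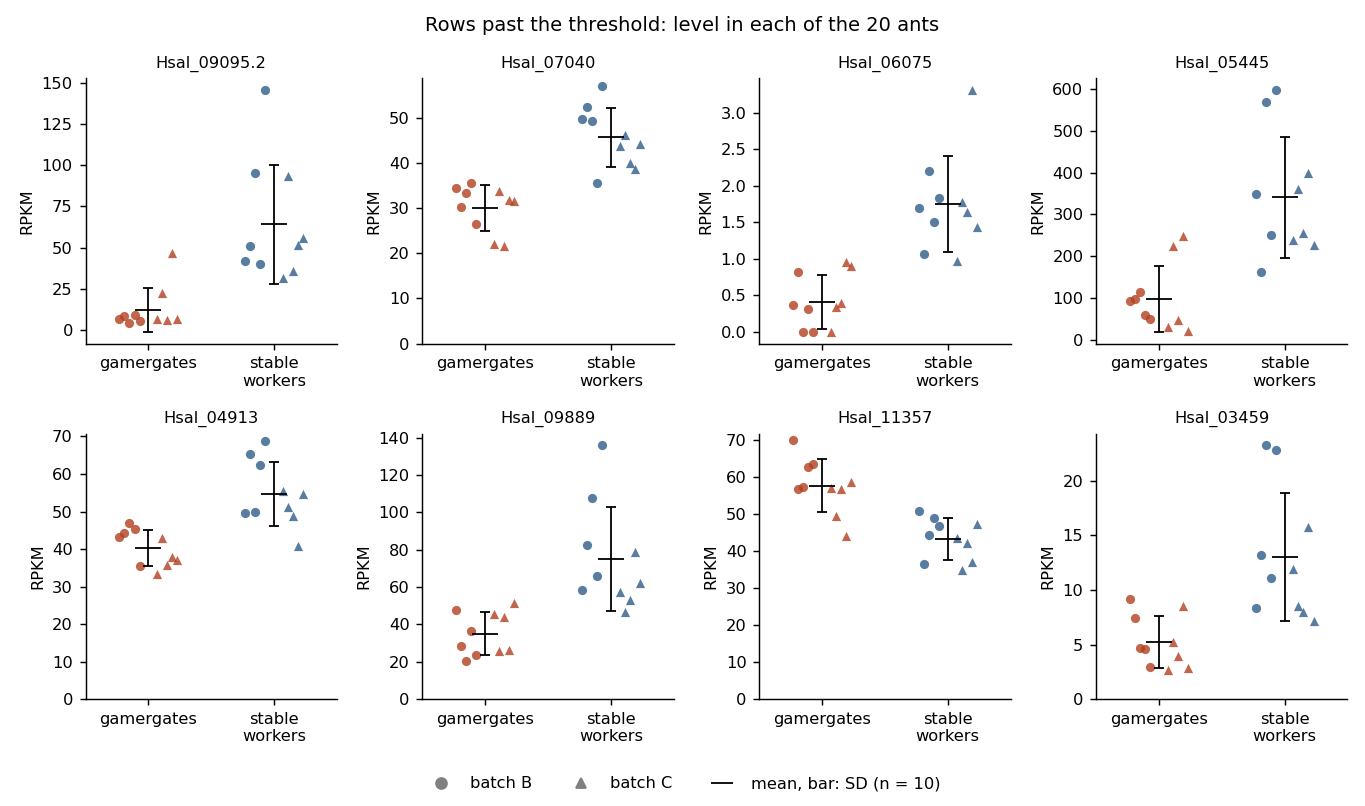
Level in RPKM (y axis) of the 8 rows past the threshold in each of 10 gamergates and 10 stable workers, with circles for batch B, triangles for batch C, and the mean and SD (n = 10) as lines. Only Hsal_07040 and Hsal_06075 show no overlap, and in Hsal_05445 and Hsal_09095.2 the 2 highest gamergates are numbers 9 and 11.

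The other 5 genes that passed did so narrowly, at adjusted p values of 0.0492 to 0.0494 in limma. Hsal_05445 had 20.5 RPKM in the lowest gamergate, a median of 77.2 and 248 RPKM in the highest, against 164, 302 and 596 RPKM in stable workers. While 8 gamergates lay below every stable worker, gamergates 9 and 11, at 225 and 248 RPKM, lay among them. The means were 98.8 ± 78.6 RPKM in gamergates and 341 ± 146 RPKM in stable workers (SD, n = 10 each), a difference of -2.06 (SE 0.378, limma adjusted p = 0.0492) that was close to equal in the batches, at -2.11 in B and -2.01 in C. With the prefix term it was -3.87 (limma adjusted p = 0.370).

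Hsal_09889 and Hsal_03459 both fell by about 1 log2 unit in gamergates. Hsal_09889 ran from 20.2 to 51.5 RPKM with a median of 32.6 RPKM in gamergates, against 46.8 to 136 RPKM with a median of 63.9 RPKM in stable workers. Gamergates 3 and 12 reached into the range of stable workers and the other 8 did not. The difference was -1.07 (SE 0.199, limma adjusted p = 0.0492), and it was the only 1 of the 8 whose change between batches, -1.49 in B against -0.65 in C, had an unadjusted p under 0.05 (0.0325, adjusted p 0.764 in limma). With the prefix term the difference was -0.36 (limma adjusted p = 0.994). Hsal_03459 ran from 2.64 to 9.20 RPKM with a median of 4.63 RPKM in gamergates, against 7.19 to 23.2 RPKM with a median of 11.5 RPKM in stable workers. In 7 gamergates it was below every stable worker, and in numbers 3, 4 and 11 it was not. Its difference was -1.16 (SE 0.222, limma adjusted p = 0.0494).

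Hsal_04913 and Hsal_11357 showed small differences between groups with little spread. Hsal_04913 lay at 33.4 to 46.9 RPKM with a median of 40.4 RPKM in gamergates, against 40.8 to 68.9 RPKM with a median of 52.8 RPKM in stable workers. The groups overlapped, with 5 gamergates below stable worker 9, the lowest at 40.8 RPKM. The difference was -0.43 (SE 0.0792, limma adjusted p = 0.0492). Hsal_11357, the gene that rose, lay at 44.2 to 70.0 RPKM with a median of 57.3 RPKM in gamergates, against 34.9 to 51.0 RPKM with a median of 43.9 RPKM in stable workers. In 8 gamergates it was above every stable worker, and in gamergates 9 and 11 it was not. It averaged 57.7 ± 7.20 RPKM in gamergates and 43.3 ± 5.59 RPKM in stable workers (SD, n = 10 each), a difference of 0.41 (SE 0.0769, limma adjusted p = 0.0494).

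These 5 calls sat close to the threshold. When the ants were left out one at a time, the call of Hsal_04913 was lost 15 times of 20, those of Hsal_05445 and Hsal_09889 17 times, and those of Hsal_03459 and Hsal_11357 18 times. The differences themselves moved little, from 0.37 to 0.44 for Hsal_11357, -0.46 to -0.39 for Hsal_04913, -2.27 to -1.86 for Hsal_05445, -1.15 to -0.97 for Hsal_09889 and -1.27 to -1.07 for Hsal_03459. The number of rows past the threshold was 25 without gamergate 11 and 1 without gamergate 5, gamergate 7 or stable worker 5. It was 2 to 5 without any 1 of the remaining 16 ants. All 8 calls had the same sign in both batches, and 7 of them were larger in batch B. They were picked by a fit over both batches together, which favours equal signs, so the match is no separate support.

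Gamergates did not leave the stable workers' range to the same degree. Over the 8 genes, gamergates 7, 8 and 10 lay outside it at all 8, and gamergates 5, 6 and 12 at 7. Gamergate 4 lay outside at 6, gamergates 3 and 9 at 5, and gamergate 11 at 4. The genes were chosen on these same ants, so this is a description of them.

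Some of the largest differences did not pass, and at Hsal_10714, Hsal_09096.2 and Hsal_04952 the gamergates differed widely among themselves. A difference of at least 1 log2 unit was found in 48 rows (0.427%), 21 higher (0.187%) and 27 lower (0.24%) in gamergates. Of these, 7 rows (0.0623%) differed by at least 2 log2 units, 5 higher (0.0445%) and 2 lower (0.0178%) in gamergates, and none of the 5 higher rows passed the test. Hsal_10714 ran from 0 to 525 RPKM with a median of 39.7 RPKM in gamergates, against 0 to 1.80 RPKM with a median of 0.263 RPKM in stable workers. In 7 gamergates it exceeded every stable worker, while gamergates 5, 9 and 11 had 0.421, 0 and 1.29 RPKM. The difference was 3.87 (SE 0.934, limma adjusted p = 0.156), with 3.87 in batch B and 3.88 in batch C, and 6.12 with the prefix term. Gamergate 9 and stable workers 1, 5, 7 and 10 had 0 reads of it, which allows up to 0.287 RPKM in gamergate 9 and 0.310 to 0.512 RPKM in these stable workers.

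Hsal_09096.2, which was chosen after its values were seen because its ID neighbours that of Hsal_09095.2 and carries the same suffix, had the largest difference of all tested rows. It ran from 35.8 to 4721 RPKM with a median of 1028 RPKM in gamergates, against 2.33 to 523 RPKM with a median of 46.9 RPKM in stable workers. Above every stable worker lay 8 gamergates, and gamergates 9 and 11, at 99.7 and 35.8 RPKM, lay within their range. The difference was 4.12 (SE 0.984, limma adjusted p = 0.156), or 5.68 in batch B and 2.56 in batch C. The positions of the 2 genes are not known here. Among the stable workers the level was also uneven, with 503 RPKM in number 4 and 523 RPKM in number 10 but 2.33 RPKM in number 2. The SD of log2(RPKM + 1) was 2.79 in stable workers and 1.15 in gamergates of batch B. In batch C it was 2.21 in stable workers and 2.83 in gamergates.

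Hsal_04952 ran from 28.7 to 212 RPKM with a median of 125 RPKM in gamergates, against 30.8 to 72.0 RPKM with a median of 42.8 RPKM in stable workers. Above all stable workers lay 7 gamergates, and gamergate 11 lay below them all. The difference of 1.09 (SE 0.287) had an adjusted p of 0.209 in limma, with 0.86 in batch B, 1.31 in batch C and 2.22 with the prefix term. In stable workers the level was lower in batch C, 34.2 ± 2.96 RPKM, than in batch B, 64.8 ± 9.89 RPKM (SD, n = 5 each). Hsal_03536, Hsal_09540 and Hsal_02046, the other rows at least 2 log2 units higher in gamergates, averaged 27.9, 17.2 and 56.5 RPKM in gamergates and 0.933, 0.677 and 3.85 RPKM in stable workers, with adjusted p values of 0.274, 0.409 and 0.547 in limma.

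**Figure D3:**
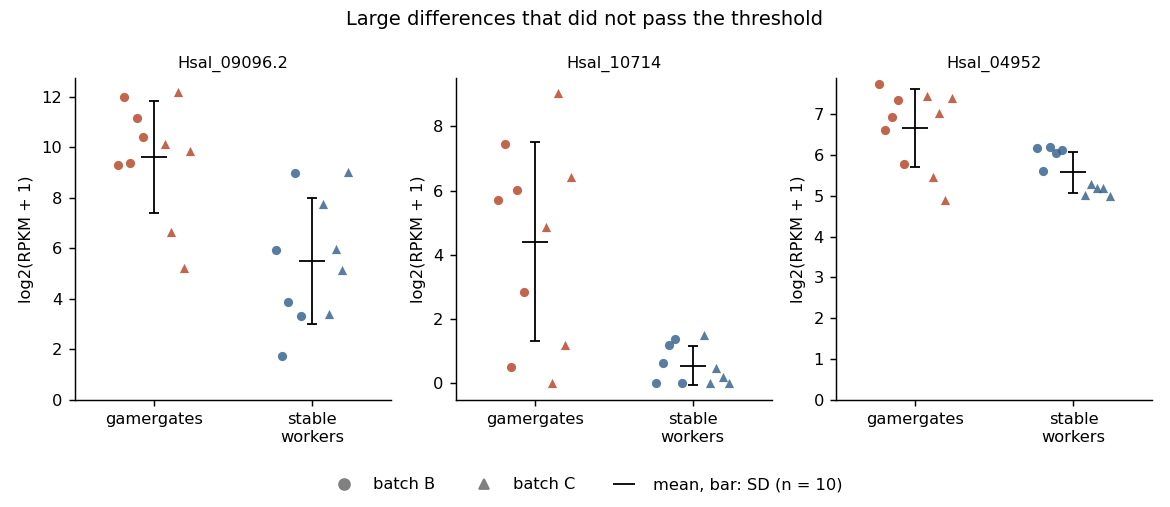
Level as log2(RPKM + 1) (y axis) of Hsal_09096.2, Hsal_10714 and Hsal_04952 in each of 10 gamergates and 10 stable workers, with circles for batch B, triangles for batch C, and the mean and SD (n = 10) as lines. Gamergates 9 and 11 are the 2 lowest gamergates in the panels of Hsal_09096.2 and Hsal_04952, and at Hsal_10714 gamergates 5, 9 and 11 lie within the range of stable workers.

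The 16 rows that followed in order of p had adjusted p values of 0.0978 to 0.152 in limma and did not pass. They were 2 higher in gamergates, by 1.44-fold and 1.69-fold on the log2(RPKM + 1) scale, and 14 lower, by 1.26-fold to 1.95-fold. All 16 had the same sign in both batches, which their choice by the fit over both batches favours. Hsal_03329, the first of the higher 2, averaged 3.18 ± 1.18 RPKM in gamergates and 1.47 ± 0.713 RPKM in stable workers, and Hsal_10317 1.61 ± 0.476 RPKM in gamergates and 0.816 ± 0.382 RPKM in stable workers (SD, n = 10 each). Among the lower ones, Hsal_00068 averaged 22.6 ± 7.98 RPKM in gamergates and 45.8 ± 18.9 RPKM in stable workers, with 9 gamergates below every stable worker. Hsal_08682, the most abundant of the 16, averaged 222 ± 75.8 RPKM in gamergates and 424 ± 145 RPKM in stable workers. Hsal_07683 averaged 8.63 ± 2.96 RPKM in gamergates and 15.9 ± 3.36 RPKM in stable workers, with 9 gamergates below the lowest stable worker. The remaining 11 were Hsal_06316, Hsal_06761, Hsal_05364, Hsal_09982, Hsal_07862, Hsal_14106, Hsal_13136, Hsal_06997, Hsal_04059, Hsal_15744 and Hsal_13838, all lower in gamergates.

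The 2 batches shared no ants, so each gives its own estimate of the difference. Over all 11234 rows the batches had the same sign in 49.8% of rows, and the differences correlated across genes with a Pearson r of 0.110 and a Spearman rho of 0.0132, where genes are not independent replicates. Among the rows with the smallest p values the signs matched more often. Of 907 rows at an unadjusted p under 0.05 in batch B (8.07%), 620 or 68.4% had the same sign in batch C. Counted as positive along each row's direction in batch B, the median difference was 0.55 in batch B, where the rows were picked. On the same count it was 0.08 in batch C, where rows of opposite sign enter as negative. In the other direction, 301 of 488 such rows of batch C (4.34%), or 61.7%, had the same sign in batch B. Of all 11234 rows, 76 were past this level in both batches, 72 with the same sign and 4 with opposite signs. How many rows would be past it in both by chance was not worked out. Tested by itself, batch B had 2 rows past the adjusted threshold in limma (0.0178%), and batch C had none, with 488 at an unadjusted p under 0.05. No row's difference changed between the batches past the adjusted threshold with limma or with voom, which had 575 rows (5.12%) and 625 rows at an unadjusted p under 0.05.

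**Figure D4:**
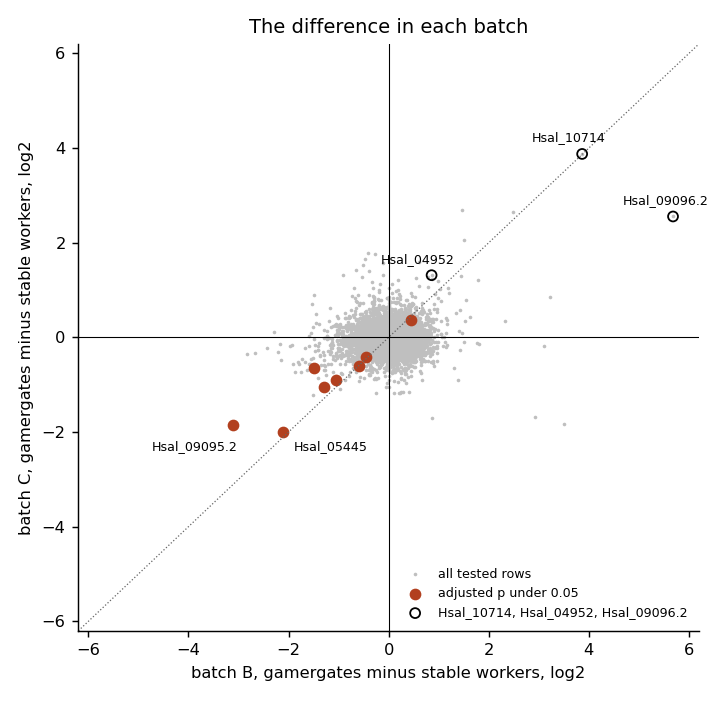
Log2 difference of gamergates minus stable workers in batch C (y axis) against that in batch B (x axis), each from 5 gamergates and 5 stable workers, with a point for each of 11234 rows. The 8 rows past the threshold (red) have the same sign in both batches and all but 1 lie farther from 0 in batch B. They were picked on both batches together, which favours equal signs. Hsal_10714 lies on the dotted line of equal differences.

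The groups of 5 and 5 did not overlap in 174 rows (1.55%) within batch B and in 98 rows (0.872%) within batch C. In 7 rows (0.0623%) this held in both batches with the same direction, and in 0 rows with opposite directions. Besides Hsal_07040 and Hsal_06075 these were Hsal_07683, Hsal_10755, Hsal_07693, Hsal_07590 and Hsal_06969, which were chosen after their values were seen. Hsal_10755 averaged 84.9 ± 5.69 RPKM in gamergates and 72.2 ± 7.08 RPKM in stable workers (SD, n = 10 each), a difference of 0.24 (SE 0.0553, limma adjusted p = 0.152). Hsal_07590 averaged 1.28 ± 1.43 RPKM in gamergates and 0.0467 ± 0.0850 RPKM in stable workers (SD, n = 10 each), differing by 0.92 (limma adjusted p = 0.209). Its mean in stable workers lay below the filter of 0.5 RPKM, so the row passed the filter only through other ants.

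The smaller differences were not spread evenly over genes. In the quartile of rows with the highest mean level, above 35.9 RPKM, 2.53% were higher and 11% lower in gamergates at an unadjusted p under 0.05, while in the quartile with the lowest level the shares were 3.56% higher and 3.81% lower. The excess of lower rows in the highest quartile was seen in batch B, with 2.28% higher and 10.3% lower, and not in batch C, with 2.71% higher and 2.81% lower, a difference between batches that was not tested. With quantile normalization the shares over both batches were 5.09% higher and 7.69% lower, and with the prefix term 0.712% higher and 1.25% lower. In the quartile of the longest genes, above 2797 bases by the lengths recovered from the values, 3.92% were higher and 3.52% lower, against 2.35% higher and 7.83% lower in the next to shortest quartile. The shares of the longest quartile were 3.67% higher and 2.63% lower in batch B, and 1.42% higher and 1.60% lower in batch C. The median difference of the longest quartile was 0.10 in batch B and -0.04 in batch C, of opposite sign. Batch B held the 3 ants with little of their reads in long genes, and this median over both batches was -0.01 without them and 0.03 with all 20 ants. Without these 3 ants, 2.71% of the longest quartile were higher and 3.35% lower. The 3 ants were picked on their share of reads in long genes and 2 of the 3 are stable workers, so the direction of these shifts follows from the choice.

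**Figure D5:**
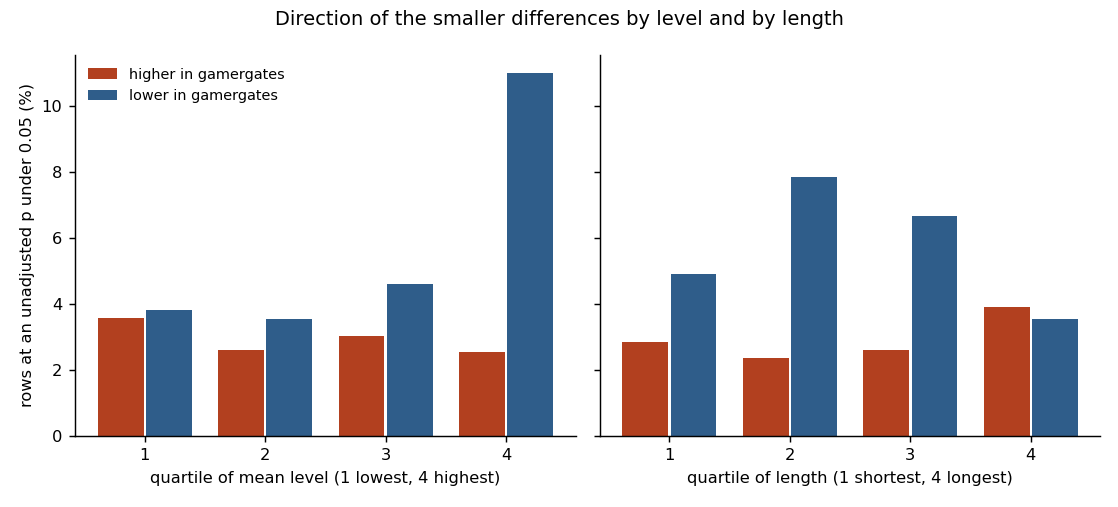
Share of rows at an unadjusted p under 0.05 in limma (y axis, %) that were higher (red) or lower (blue) in gamergates than in stable workers, by quartile of mean level (left) and quartile of length (right) of 11234 rows. Lower rows reach 11% in the highest quartile of level, and the longest is the only quartile of length with more higher rows, 3.92%, than lower rows, 3.52%. In batch C alone, not drawn, the longest quartile had fewer higher rows, 1.42%, than lower rows, 1.60%.

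Of the rows that are not genes, none passed the test. The median difference of the 32 ribosomal RNA rows was -0.49, against -0.02 over all tested rows, with 27 of 32 lower in gamergates. At an unadjusted p under 0.05 in limma 3 of them were lower, or 9.38%, against 5.73% over all rows. In batch B alone 11 of the 32 were lower at that level, or 34.4%, against 5.15% over all rows. In batch C alone 0 of the 32 were, against 2.34% over all rows. The median of the 32 rows was -0.63 in batch B and -0.24 in batch C, and it was 0.04 with the prefix as a further term. Ribosomal RNA took up 1.36 ± 0.915% of reads in gamergates and 2.21 ± 2.35% in stable workers (SD, n = 10 each), with 7.04% in stable worker 7. The median difference of these rows was -0.29 without stable worker 7, with 1 row lower at an unadjusted p under 0.05, and -0.74 without stable worker 6, with 17 rows lower. The part of ribosomal RNA carry-over in this difference was not tested. The 14 rows of small nuclear RNA had 12 lower, with a median of -0.34 and 3 lower at an unadjusted p under 0.05 (21.4%, against 5.73% over all rows). In batch B alone 5 of these 14 rows were lower at that level (35.7%), with a median of -0.47. In batch C alone 0 of these 14 rows were, with a median of -0.22. With the prefix term they split into 7 higher and 7 lower, with a median of -0.10 and 0 rows at that level, and without stable worker 6 the median was -0.55, with 6 rows lower. The 34 rows of tRNA and the 9 of microRNA had medians of -0.08 and -0.02, with 2 and 0 rows at an unadjusted p under 0.05, against 8.66% of all rows.

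Ants of the 2 groups varied to a similar extent over all rows. The SD of log2(RPKM + 1) was greater among gamergates than among stable workers in 50.3% of rows in batch B and in 50.7% in batch C. Rows with an SD above 1 numbered 493 in gamergates and 211 in stable workers in batch B, but 144 in gamergates and 189 in stable workers in batch C. No row was above 0 in at least 8 ants of one group and in none of the other. At a lower bar, 10 rows were above 0 in at least 5 gamergates and in no stable worker and 3 rows were above 0 in at least 5 stable workers and in no gamergate. These counts were not tested against each other. A total of 9977 rows were above 0 in all 20 ants.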

How the data were processed

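Brains were dissected, RNA was extracted with TRIzol, and strand-specific libraries were made with dUTP, per the labels' protocols. STAR 2.5.0b and DESeq2 are named in the submitters' processing notes and the genome build and annotation were not given in the sources used here. A single RPKM column per ant was deposited by the authors, for 33 ants and 19198 rows, and 0 further per-sample columns were present. Of the 20 ants, 10 have 2 sequencing runs, and whether their RPKM values use 1 or both is not given. These 10 are the ants of batch C, and each ant of batch B has 1 run. The number of runs and the batch therefore cannot be told apart. The authors' table of another comparison was not used.

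Batches were read from run dates in the library names, with 5 ants of each group in each of batches B and C. Rows averaging 0.5 RPKM or more over the 33 ants (11234, of which 11145 are genes) were tested on log2(RPKM + 1), which understates the changes of weakly expressed genes, with limma 3.58.1 in R 4.3.3 (lmFit, eBayes with a variance trend), batch as a term, two-sided, Benjamini-Hochberg adjustment over all rows and a threshold of 0.05. Differences are gamergates minus stable workers. The 4 measures per ant were tested by all 63504 relabellings within batches, adjusted over the 4. Whole reads were recovered for 15320 rows from the steps of the RPKM values (100% of 404997 values whole within 0.01 reads) and used for depth, gene lengths and voom. The fit was tested on simulated data. Named genes were the rows past the threshold with the same sign in both batches, at most 12 per direction, filled to 24 by smallest p, plus 5 IDs named by earlier results. Members and lists were chosen with earlier results of these data known. The alternatives covered the pseudocount, filter, scaling, model terms, voom, ants used and leaving out each ant.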

Additional observations from a re-analysis of the deposited data

Results flagged for a closer look

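Single ants were looked for in each group of 10 with Dixon's test at its 95% critical value, which chance alone passes in about 1 of 20 groups. On the log2(RPKM + 1) scale of the fit, and for the 4 measures per ant on their own scales, 0 of 62 groups held an ant that stood apart. On the RPKM scale, looked at after seeing the data, 4 of 54 groups did. Among gamergates these were Hsal_09095.2, at 47.0 RPKM in gamergate 11, and Hsal_10714, at 525 RPKM in gamergate 10. Among stable workers they were Hsal_06075, at 3.31 RPKM in stable worker 9, and Hsal_00068, at 90.9 RPKM in stable worker 5.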

How the results depend on the processing

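The 8 rows past the threshold in limma became 2 with a pseudocount of 0.1, 3 with no filter beyond a mean above 0, 4 with median-ratio scaling, 4 with quantile normalization, 3 without the variance trend, 3 with robust eBayes, 2 with voom and 3 without the batch term. The count was 26 (8 higher, 18 lower, all 8 among them) with all 33 ants in 1 model, 2 with batch B alone and 0 with batch C alone. It was 1, none of the 8, with a term for the library name prefix, and 0 without the ND stable workers, which are numbers 1 to 3, all of batch B. It was also 0 without the 3 ants with the lowest share of reads in long genes, an alternative chosen after seeing the data; both removals leave fewer ants. The cause of the other shifts was not tested. Leaving out 1 ant gave 1 to 25 rows. The count stayed at 7 or 8 with a pseudocount of 5, a mean of at least 2 RPKM, a filter over the 20 ants, or all 12 gamergates. With the replicate number as a block it was 0, with 652 rows at an unadjusted p under 0.05. Whether a shared number marks paired ants is not given by the labels and is not known. Over 8 shared numbers the correlations of deviations ran from -0.172 to 0.486. The shared number gave the highest correlation for 1 of 8, number 3. Numbers 6 and 7 fell in different batches in the 2 groups, so these correlations cannot decide the question. The change between batches stayed at 0 rows in every setting in which it was fitted, and no named gene changed direction in any setting. An edgeR test of the recovered reads had been planned and was not run. With 10 ants a group the median SE was 0.14 log2 units, which limits what could be seen.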
